A study of Caenorhabditis elegans with 53 samples.

Results

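Small RNAs of Caenorhabditis elegans adults fed bacteria that make double-stranded RNA against dcr-1, the gene of the nuclease Dicer, were compared with those of adults fed bacteria with L4440, the empty vector used as the control for RNA interference (RNAi) by feeding. The comparison rested on 4 of the 53 samples of the series, 2 L4440 and 2 dcr-1 RNAi libraries, which were chosen by their treatment label, and every small RNA class of their table was used. All 4 came from whole gravid hermaphrodites, grown from synchronized L1 larvae for 72 to 75 h at 20 °C on E. coli, and from RNAs of 16 to 30 nt. All carried the same allele by their labels, rde-1(cmp133[(gfp::3xFLAG)::rde-1]), a tagged form of the Argonaute RDE-1, so no library came from an untagged strain. The columns also name an RDE-4::FLAG that the labels do not, and the second dcr-1 RNAi column is numbered replicate 3 where the labels give replicates 1 and 2. Nothing states whether the libraries of a group came from separate cultures, so p-values measure only the spread between these libraries, which may be technical.

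Dicer cuts double-stranded RNA into short duplexes whose strands end in a hydroxyl and leave overhangs at the 3′ ends. In C. elegans a single Dicer makes microRNAs from hairpin precursors that Drosha and its partner have already cut from longer transcripts, makes primary small interfering RNAs (siRNAs) from introduced double-stranded RNA, and works with the RNA polymerase RRF-3 in the ERI complex to make 26G-RNAs. The ALG-3 and ALG-4 Argonautes bind one set of 26G-RNAs during sperm formation and ERGO-1 binds another in oocytes and embryos. By contrast, 21U-RNAs, the piRNAs of the worm, are transcribed singly, and most 22G-RNAs are made as single copies by the RNA polymerases RRF-1 and EGO-1, without a Dicer cut. CSR-class and WAGO-class 22G-RNAs are named for the Argonautes that carry them. The table also lists 23H-RNAs, a class named by the authors whose rows are single sequences, and 22G-RNAs of the targets of ALG and ERGO 26G-RNAs and of 23H-RNAs.

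The strands of the most abundant 23H-RNA duplex pair with the 3′ overhangs that Dicer leaves. Both came from the locus named F43E2.6, on chromosome II, and paired over 21 bases, and capitals mark the 2 unpaired bases at each 3′ end.
F43E2.6 strand 1: tttgccgatgtttctgagatgTC
F43E2.6 strand 2: catctcagaaacatcggcaaaTG
Over the whole class, 201 pairs of listed sequences, made of 381 of the 1193 sequences, could be paired in this way with 2-nt overhangs. This is a match between listed sequences, whether or not both were detected. Both strands were abundant enough to be tested below in only 1 pair, and 704 of the 1193 sequences were at 0 in all 4 libraries.

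Shorter and longer forms of strand 1 were listed as sequences of their own. Capitals mark bases outside the 21 that all share, and the forms are shown because their levels are compared below.
F43E2.6, 21 nt: tttgccgatgtttctgagatg
F43E2.6, 22 nt: tttgccgatgtttctgagatgT
F43E2.6, 24 nt: tttgccgatgtttctgagatgTCT
The Y57G11C hairpin, on chromosome IV, gave the second largest share of the class, and 3 sequences of the hairpin or of the overlapping name Y57G11C.51 share 22 bases (a capital marks the base after these).
Y57G11C hairpin and Y57G11C.51, 22 nt: agtggagtggatgacgacgacg
Y57G11C hairpin, 23 nt: agtggagtggatgacgacgacgA
Y57G11C.51, 23 nt: agtggagtggatgacgacgacgG

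As a check of the labels, the row of siRNAs against dcr-1 itself stood at 56.9 and 71.2 RPM (reads scaled to the size of the library, as deposited) on L4440 and at 16972 and 16749 RPM on dcr-1 RNAi. The groups did not overlap, the ratio of the means was 263, and the siRNAs made up 2.88% of the summed RPM of the dcr-1 RNAi libraries (log2 change 8.03, SE 0.08, limma adjusted p 1.67e-22). The animals on dcr-1 RNAi held abundant small RNAs against the gene, which are themselves products of the RNAi pathway. The level of dcr-1 mRNA or of Dicer protein was not analysed here. The labelled stage could be checked on microRNAs, since the miR-35 family is known from embryos and let-7 from late larvae and adults. lin-4 acts earlier in the timing pathway of let-7, so its level does not mark the adult stage. On L4440 miR-35-3p stood at 17762 and 20662 RPM, let-7-5p at 2263 and 2065 RPM and lin-4-5p at 589 and 494 RPM. Soma, germ line and embryos were sequenced together, and fewer cells of a type and less RNA per cell cannot be told apart.

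The rows of a library summed to 580879 to 588407 RPM, with 13406 to 13774 rows above 0. Low piRNA values lay on a common step from which 1 RPM stood for 21.3 to 29.9 reads, with the highest value in dcr-1 RNAi replicate 1. Of 25898 rows, 7704 had a mean of at least 1 RPM and were tested with limma on log2(RPM + 1). Of these, 1632 (21.2%) had an adjusted p under 0.05, the threshold used throughout, 1373 of them higher (17.8%) and 259 lower (3.36%) on dcr-1 RNAi. These are the background shares for the counts below, and 56.0% of all rows tested were higher and 12.2% lower in both dcr-1 RNAi libraries than in both L4440 libraries. Among the 7704 rows, 979 shared a gene ID with another row, for genes listed in several classes.

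The count of calls and their direction changed with scaling and when a library was left out. The median log2 change of all rows was 0.21 as deposited, 0.01 with libraries centred on their medians, -0.02 with libraries rescaled to all rows but microRNAs and 0.47 with libraries rescaled to piRNAs. The share of calls that were higher was 84.1%, 20.8%, 10.3% and 97.7% on these scales. The median log2 change was 0.18 without L4440 replicate 1 and 0.24 without L4440 replicate 2. It was 0.16 without dcr-1 RNAi replicate 1 and 0.25 without replicate 3. Fewer rows passed in each of these fits. They have 1 library in a group, so a call lost in them need not mean that 1 library carried the change. Directions below are on the deposited scale, and the ratio of a microRNA's arms, which scaling leaves nearly as it is, is given a section of its own.

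On the deposited scale microRNAs, 23H-RNAs, ALG-class 26G-RNAs and piRNAs lay lower on dcr-1 RNAi, and 22G-RNAs and ERGO-class 26G-RNAs lay higher. MicroRNAs made up 44.0% ± 1.17 of the summed RPM on L4440 and 33.8% ± 1.29 on dcr-1 RNAi (SD, n = 2 each, here and below). WAGO-class 22G-RNAs made up 40.7% ± 0.724 and 45.7% ± 0.249, and CSR-class 22G-RNAs 10.0% ± 0.363 and 12.4% ± 0.908. No class share could pass a test, since 2 libraries against 2 cannot go below an exact permutation p of 0.33 (two-sided), which these 3 classes reached. When microRNAs were left out of the denominator, the difference in the WAGO share, dcr-1 RNAi minus L4440, was -3.79 in place of 4.96 percentage points.

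**Figure D1:**
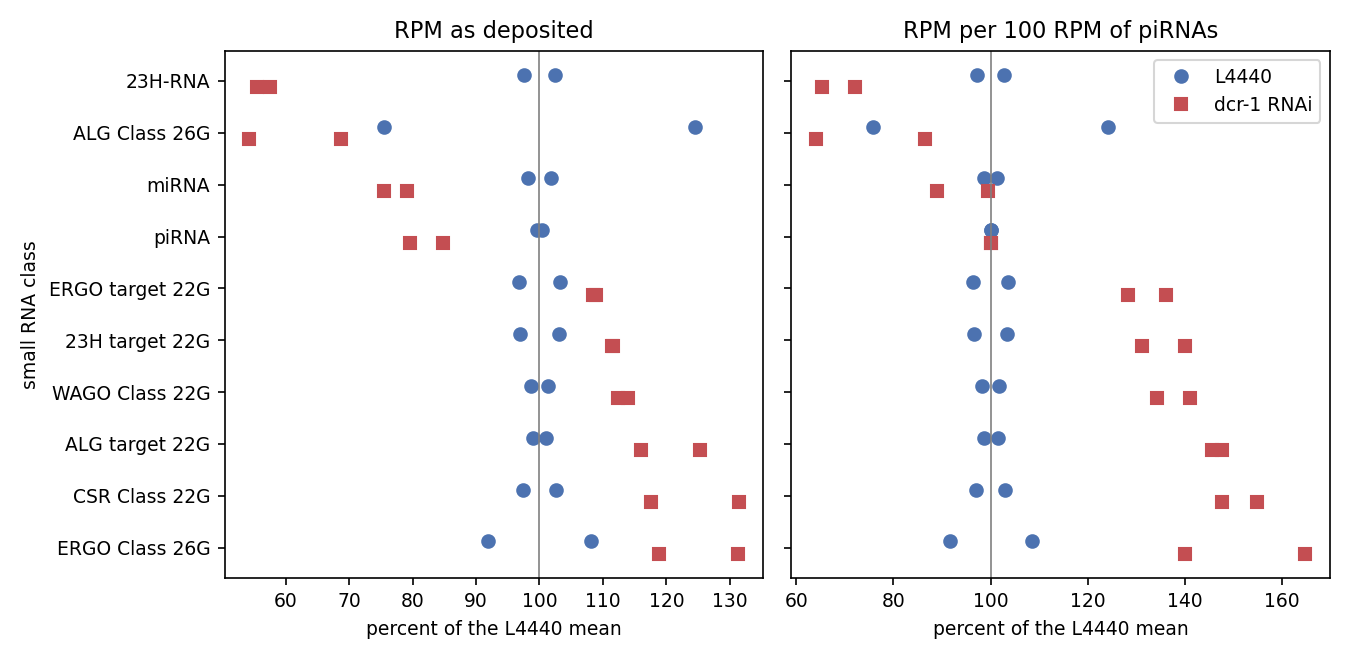
Summed RPM of each small RNA class in each library as a percent of the L4440 mean of that class (x axis), as deposited (left) and per 100 RPM of piRNAs (right), with circles for the 2 L4440 and squares for the 2 dcr-1 RNAi libraries. 23H-RNAs lie below 100% on both scales at 56.5% and 68.8% in the mean, while microRNAs lie at 77.3% as deposited and at 94.2%, with overlapping groups, beside piRNAs.

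Set against piRNAs, which need no Dicer cut, the classes fell into 3 groups. 23H-RNAs stood at 3.58 and 3.79 RPM per 100 RPM of piRNAs on L4440 and at 2.41 and 2.66 on dcr-1 RNAi, which is 68.8% of the L4440 mean with no overlap. MicroRNAs stood at 2542 and 2472 against 2230 and 2491 RPM per 100 RPM of piRNAs, so the groups overlapped. ALG-class 26G-RNAs overlapped as well, at 3.26 and 1.99 against 1.68 and 2.27. ERGO-class 26G-RNAs (152%), CSR-class 22G-RNAs (151%) and WAGO-class 22G-RNAs (138%) were higher in both dcr-1 RNAi libraries than in both L4440 libraries on this scale.

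Row by row, 68 of the 184 microRNA rows tested fell and 24 rose, against background shares of 3.36% and 17.8%. Of 1202 piRNA rows 118 fell and 1 rose, of 37 23H-RNA sequences 11 fell and none rose, and of 16 ALG-class 26G-RNA rows 2 fell and none rose. Of 3443 CSR-class 22G-RNA rows 685 rose and 1 fell (K12H6.2), and of 2085 WAGO-class rows 556 rose and 44 fell. The CSR-class counts became 65 rises and 11 falls after centring and 17 and 7 after rescaling to all rows but microRNAs, and the WAGO-class counts became 66 rises and 168 falls, and 32 and 209. The microRNA counts became 16 rises and 84 falls after centring, and 51 rises and 36 falls after rescaling to piRNAs. Without L4440 replicate 1 there were 34 falls and 10 rises of microRNAs, and without dcr-1 RNAi replicate 1 there were 34 and 11. The CSR-class rises numbered 1 without L4440 replicate 1, 338 without L4440 replicate 2, 4 without dcr-1 RNAi replicate 1 and 457 without replicate 3, and the WAGO-class rises 32, 482, 27 and 232. The falls of piRNAs numbered 1, 56, 14 and 38 in the same order, and those of 23H-RNAs 5, 7, 4 and 8. Rescaled to piRNAs, 47 piRNA rows fell and 48 rose. The medians of the log2 change were -0.35 for 23H-RNAs, -0.57 for ALG-class 26G-RNAs, -0.21 for microRNAs and -0.20 for piRNAs, beside 0.21 for all rows.

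**Figure D2:**
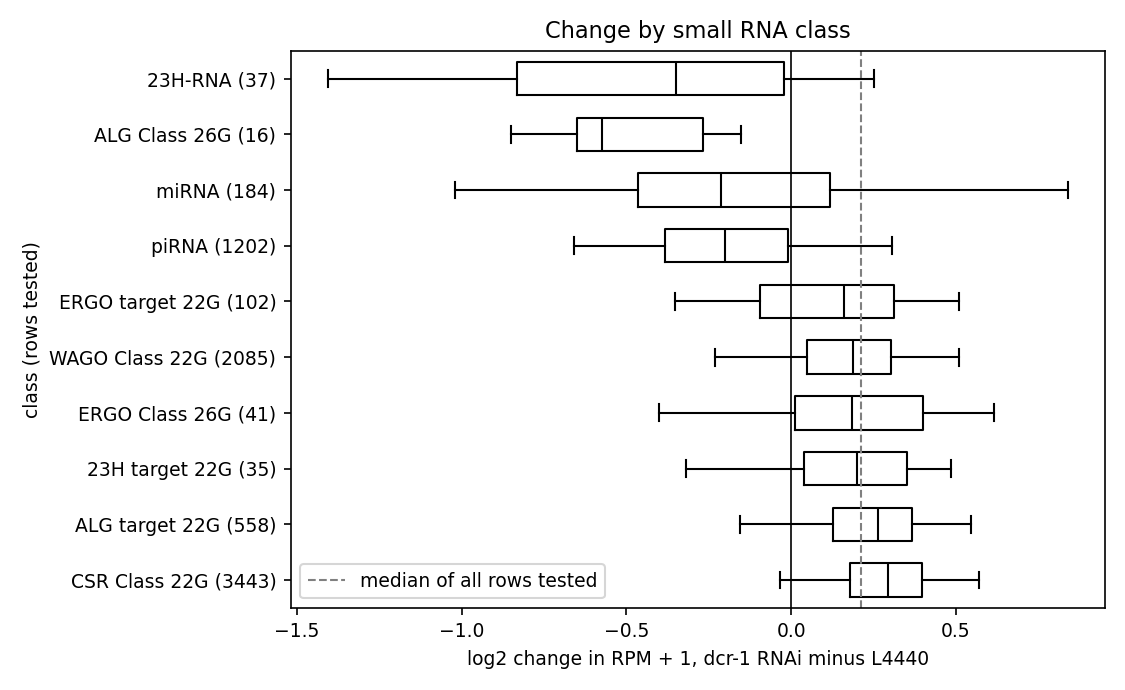
Log2 change in RPM + 1, dcr-1 RNAi minus L4440 (x axis), of the rows tested in each class. Boxes span the quartiles with the median as a line, whiskers reach the 5th and 95th percentiles, and the dashed line is the median of all rows at 0.21. MicroRNAs spread to both sides of 0 around -0.21, while piRNAs lie in a narrower band around -0.20.

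The wider spread of microRNAs went with the 2 arms of the hairpin. Dicer leaves a duplex of a 5p and a 3p strand, of which usually 1, the guide, stays in the Argonaute ALG-1 or ALG-2 and the other, the passenger, is lost. For 59 microRNAs with both arms tested, the arm with more RPM in 3 other libraries of the series, from wild-type adults, was taken as the greater arm. These 3 libraries were treated with RppH, a pyrophosphohydrolase, which is not named for the libraries compared here. The lesser arm gained on the greater arm in 34 of 59 (57.6%), lost in 1 (1.69%) and did not pass in 24. The change was above 0 in 55 of the 59 and its median was 0.76 on the log2 scale. The greater arm fell in 33 microRNAs and rose in 2 (miR-51 and miR-83), with a median log2 change of -0.32. The lesser arm rose in 22 and fell in 3, with a median of 0.37. Among the 34 gains, 13 had a greater arm that fell and a lesser arm that rose, 9 only a fall of the greater arm, 9 only a rise of the lesser arm and 3 neither.

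The size of this shift differed widely between microRNAs. miR-58a, a member of the abundant bantam-related family of the worm, had its greater arm miR-58a-3p at 13344 and 12510 RPM on L4440 and at 8699 and 8463 RPM on dcr-1 RNAi. Its lesser arm miR-58a-5p stood at 70.3 and 66.1 RPM and at 272 and 248 RPM. The 2 arms changed in opposite directions, with no overlap between groups in either. The lesser arm went from 0.525% to 2.94% of the pair (arm change 2.50 on the log2 scale, SE 0.21, limma adjusted p 7.62e-06). miR-77-3p went from 2547 and 2887 RPM to 1874 and 1993 RPM while miR-77-5p went from 383 and 360 RPM to 706 and 845 RPM. Its lesser arm thus went from 12.1% to 28.6% of the pair (1.54, SE 0.22). miR-246-3p, a microRNA known to rise with age in adults, fell from 367 and 333 RPM to 112 and 127 RPM, and miR-246-5p was at 5.10 and 5.22 RPM and at 6.22 and 7.34 RPM, so this arm change of 1.88 (SE 0.20) came with a fall of the greater arm only.

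In miR-41 the change lay wholly in 1 arm. miR-41-5p rose from 364 and 419 RPM to 1113 and 1131 RPM, and miR-41-3p stood at 24.8 and 32.1 RPM and at 31.3 and 22.2 RPM, groups that overlap. Its 5p arm was the lesser in the wild-type adults but held 93.3% of the pair on L4440 here, and 7 other pairs also had the arms in that reversed order, so the label greater or lesser is that of the wild-type libraries. miR-241, of the let-7 family, had the second largest change at 2.01 (SE 0.41). Its lesser arm miR-241-3p stood at 8.0 and 21.5 RPM on L4440, which is a wide spread, and at 38.8 and 42.6 RPM on dcr-1 RNAi. The exception was miR-83, whose 5p arm rose from 12.4 and 12.6 RPM to 27.7 and 24.7 RPM while its 3p arm fell from 21 and 24 RPM to 15.9 and 16.5 RPM (-1.46, SE 0.24). miR-83-3p had more RPM than miR-83-5p on L4440, so in miR-83 the arm that was scarcer on L4440 gained, whereas in miR-41 it was the more abundant arm.

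When the greater arm was instead the one with more RPM on L4440, an order chosen after these values were seen, 31 of the 59 gained and 3 lost. The count of 35 pairs past the threshold was 25 without L4440 replicate 1, 30 without L4440 replicate 2, 13 without dcr-1 RNAi replicate 3 and 1 without dcr-1 RNAi replicate 1. The lone library of a group was then assumed to vary like the other group. In those fits the median change was 0.59 to 0.83, and 51 to 56 pairs lay above 0.

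**Figure D3:**
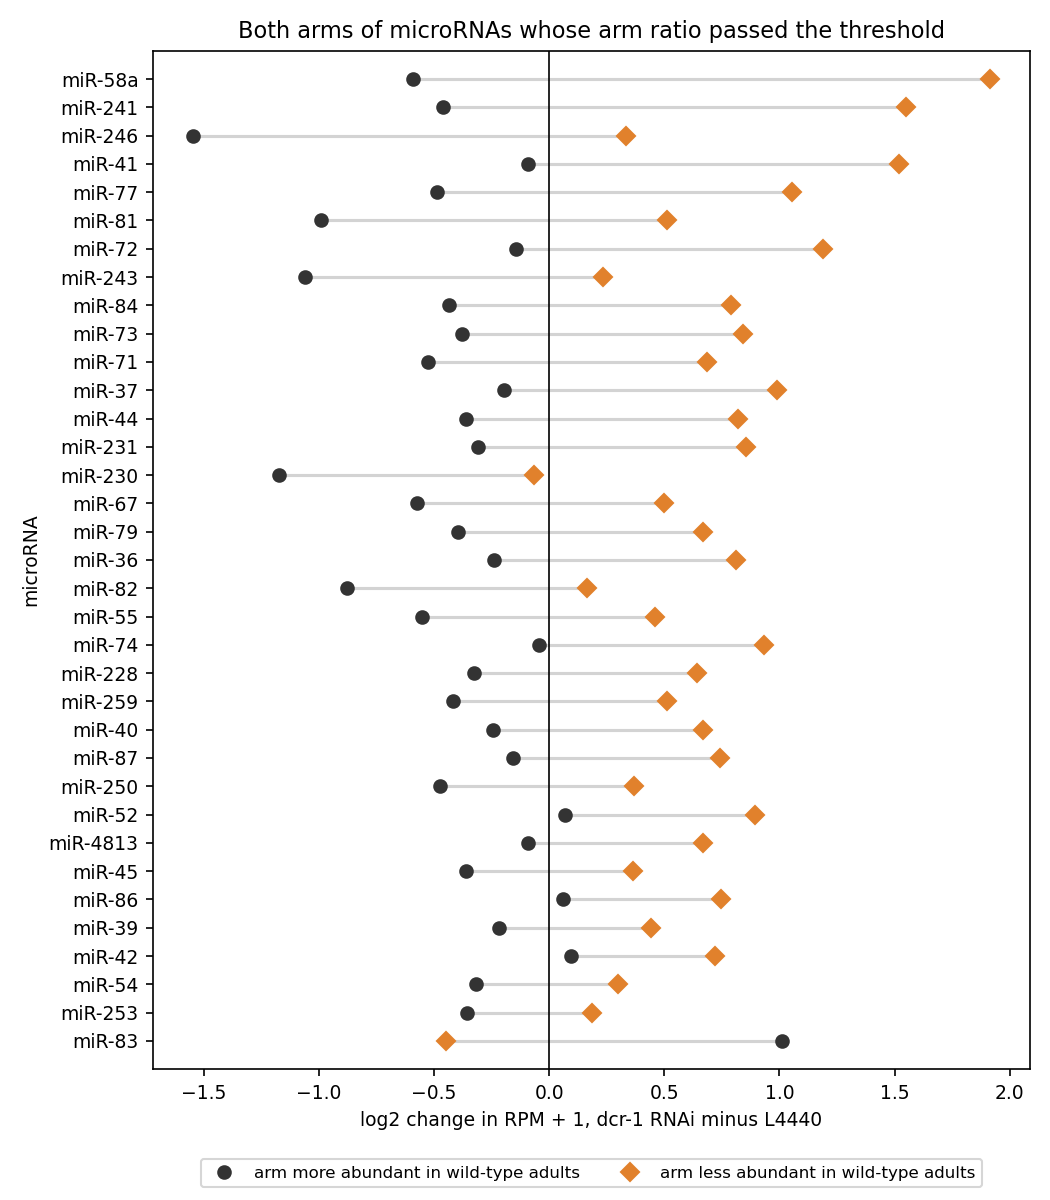
Log2 change in RPM + 1, dcr-1 RNAi minus L4440 (x axis), of both arms of the 35 microRNAs whose arm ratio passed the threshold, with circles for the arm that was more abundant in wild-type adults and diamonds for the other arm. In 34 the diamond lies to the right of the circle, and miR-83 shows the reverse order.

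On the deposited scale most of the abundant microRNAs fell. Of the 32 rows with at least 1000 RPM on L4440, which held 95.5% of the microRNA RPM, 26 fell, 1 rose and 5 did not pass. The row that rose was miR-51-5p, at 21457 and 21956 RPM and at 26048 and 26264 RPM (log2 change 0.27, SE 0.04). It did not pass without dcr-1 RNAi replicate 1 (limma adjusted p 0.126) or replicate 3 (0.0602), and it passed on 1 of the 3 other scales. The most abundant row, miR-80-3p, stood at 27987 and 23213 RPM and at 23280 and 23166 RPM, groups that overlap. Rescaled to piRNAs, the 184 microRNA rows tested gave 51 rises and 36 falls, with a median log2 change of 0.048. On that scale miR-48-5p, miR-39-3p, miR-40-3p and miR-61-3p, all of at least 1000 RPM, turned to slightly above 0.

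Larger falls were found in microRNAs below the most abundant. miR-1020-3p, from a mirtron, a hairpin that is freed by splicing and not by Drosha, went from 3.88 and 3.44 RPM to 0.27 and 0.65 RPM (log2 change -1.69, SE 0.25). Its limma adjusted p was 0.0547 without L4440 replicate 1. The mirtron miR-62 fell less (-0.47), from 52.9 and 56.6 RPM to 38.8 and 39.5 RPM, and without L4440 replicate 1 or dcr-1 RNAi replicate 1 its limma adjusted p was 0.076 and 0.0801. The third mirtron tested, miR-1018, did not pass (-0.30). Where the mean of either group reached 10 RPM, the largest falls were those of miR-785-3p, miR-246-3p (above), miR-789-2-5p, miR-230-3p and miR-59-3p. miR-785-3p fell from 29.0 and 27.6 RPM to 8.97 and 8.63 RPM (-1.58, SE 0.14) and miR-789-2-5p from 35.8 and 31.3 RPM to 12.4 and 9.49 RPM (-1.54, SE 0.15). In each of these the groups were well apart. The log2 change was -1.17 for miR-230-3p, -1.12 for miR-59-3p and -1.06 for miR-243-3p, and miR-785-3p, miR-789-2-5p, miR-230-3p, miR-59-3p, miR-243-3p and miR-246-3p kept their call without each library in turn and on every scale tried. Of 60 microRNAs past the threshold that are named here by list or by size, 29 passed in each of the 4 fits that left out a library and 34 on each of the 3 other scales.

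MicroRNAs of a family share a seed, the bases that pair with targets, and several families were set out by arm. Their counts stand beside those of all 184 microRNA rows tested, of which 68 fell and 24 rose. The share of falls in the let-7, mir-51 and mir-58 lists lay near that of all microRNA rows. All 7 tested rows of the mir-64 list (miR-63, miR-64, miR-65, miR-66 and miR-229) fell, both arms of miR-63 and miR-229 included, with a median of -0.64, and lay below 0 on every scale tried, though miR-63-5p passed on only 2 of the 3 other scales. miR-64-5p went from 3350 and 3461 RPM to 1640 and 1734 RPM (-1.01, SE 0.05). Without L4440 replicate 1, miR-229-5p (limma adjusted p 0.076), miR-229-3p (0.0606) and miR-63-5p (0.171) no longer passed. Without dcr-1 RNAi replicate 1 or 3, miR-63-5p did not pass either (0.0696 and 0.0898).

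The mir-35 family, which is abundant in embryos and required for their development, divided by arm. Of 14 rows tested, 5 fell, all of them 3p arms, and 6 rose, all of them 5p arms. miR-35-3p went from 17762 and 20662 RPM to 12590 and 13485 RPM (-0.56, SE 0.06). miR-37-5p went from 3.60 and 4.05 RPM to 7.96 and 9.19 RPM (0.99), and miR-40-5p from 28.8 and 35.0 RPM to 55.0 and 47.2 RPM (0.67). miR-36-3p (-0.24), miR-39-3p (-0.22) and miR-40-3p (-0.24) turned to 0.043, 0.065 and 0.038 when libraries were rescaled to piRNAs. Without dcr-1 RNAi replicate 1, those 3 rows, miR-36-5p, miR-39-5p and miR-40-5p lost their calls, and without L4440 replicate 1, miR-38-3p, miR-40-3p, miR-36-5p, miR-37-5p, miR-39-5p, miR-40-5p and miR-42-5p did. Without L4440 replicate 2, miR-36-5p, miR-38-3p and miR-40-3p lost theirs, and without dcr-1 RNAi replicate 3, miR-36-3p, miR-38-3p and miR-39-3p.

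Of the let-7 family, which times late larval development, 5 of 11 rows tested fell and 1, miR-241-3p, rose. let-7-5p went from 2263 and 2065 RPM to 1371 and 1599 RPM (-0.55, SE 0.07). miR-48-5p went from 14928 and 12662 RPM to 10502 and 12178 RPM (-0.28). It turned to 0.00055 when rescaled to piRNAs, and it did not pass without L4440 replicate 1 (limma adjusted p 0.226) or dcr-1 RNAi replicate 1 (0.339). miR-84-5p, miR-241-5p and miR-793 also lost their calls without either of these libraries, and miR-793 without dcr-1 RNAi replicate 3. lin-4-5p, which acts earlier in the same timing pathway, fell from 589 and 494 RPM to 360 and 352 RPM (-0.60, SE 0.07), and miR-237-5p, which has the same seed, by 0.43 on the log2 scale. Both passed without each library in turn, and the third row of that list, miR-237-3p, did not pass (0.06).

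Members of 1 family did not move alike. In the mir-58 list miR-81-3p (-0.99), miR-82-3p (-0.88) and miR-58a-3p (-0.59) fell, whereas miR-80-3p (-0.13) did not pass, and the only rise among its 10 rows tested was that of miR-58a-5p. In the mir-51 list miR-55-3p (-0.55), miR-56-3p (-0.68) and miR-54-3p (-0.32) fell and miR-51-5p, miR-54-5p (0.30) and miR-52-3p (0.89) rose, with 4 of 10 not past the threshold. Without L4440 replicate 1, dcr-1 RNAi replicate 1 or replicate 3 each of miR-54-3p, miR-54-5p and miR-52-3p lost its call, and miR-54-5p also without L4440 replicate 2. In the mir-44 list miR-44-3p and miR-45-3p, which have the same values in every library, fell (-0.36), as did miR-61-3p (-0.23, and 0.053 rescaled to piRNAs), and miR-44-5p (0.82) and miR-45-5p (0.36) rose. Without dcr-1 RNAi replicate 1, miR-44-3p and miR-45-3p had a limma adjusted p of 0.0696. miR-61-3p and miR-45-5p lost the call without that library and without L4440 replicate 1, miR-61-3p also without dcr-1 RNAi replicate 3 and miR-45-5p without L4440 replicate 2.

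**Figure D4:**
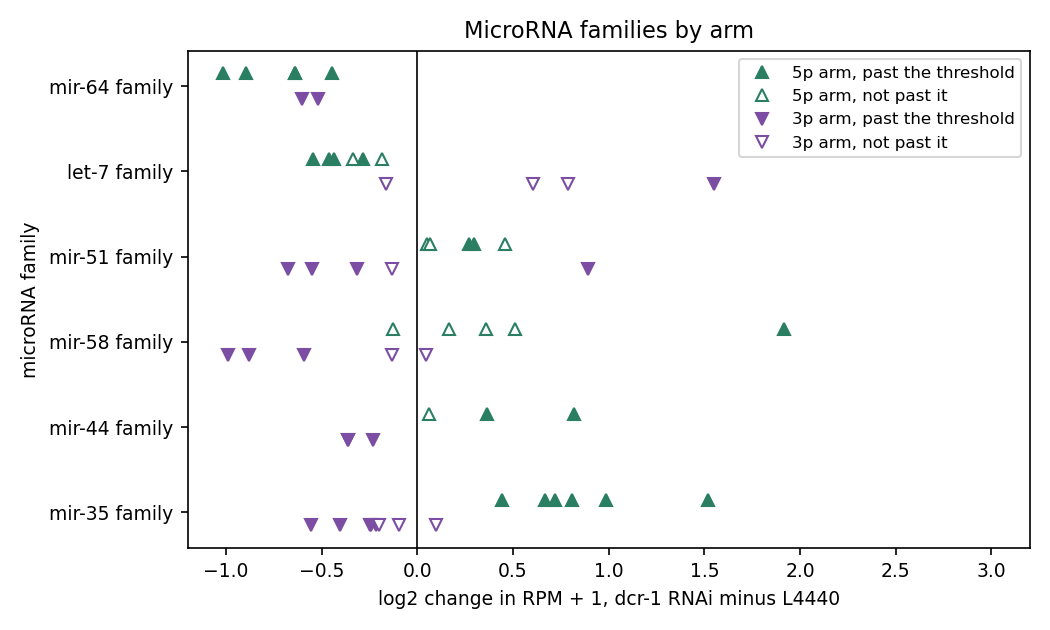
Log2 change in RPM + 1, dcr-1 RNAi minus L4440 (x axis), of each tested row of 6 microRNA families (y axis) that carries an arm in its name, with upward triangles for 5p and downward for 3p arms, filled where the row passed the threshold. All mir-64 rows lie below 0, the 5p arms of the mir-35 family lie between 0.44 and 1.52 and its 3p arms between -0.56 and 0.10, and miR-793 of the let-7 family (-0.34) has no arm in its name and is not drawn.

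A list of microRNAs known from single tissues or from stress gave 10 falls and 2 rises among 24 rows tested. Its share of falls lay near that of all microRNA rows, with 68 falls and 24 rises among 184. miR-1-3p, which is specific to muscle, went from 5594 and 5403 RPM to 3533 and 4713 RPM (-0.43, SE 0.08), but its limma adjusted p was 0.158 without L4440 replicate 1, 0.057 without L4440 replicate 2 and 0.175 without dcr-1 RNAi replicate 1. miR-71-5p, which promotes longevity, went from 21758 and 18799 RPM to 13122 and 14986 RPM (-0.53, SE 0.06), and miR-70-3p from 16413 and 15615 RPM to 9057 and 9361 RPM (-0.80, SE 0.04). miR-71-5p and miR-70-3p were lower in both dcr-1 RNAi libraries and passed without each library in turn. miR-786-3p, which acts in the intestinal defecation rhythm, fell from 192 and 161 RPM to 96.1 and 88.8 RPM (-0.92). The neuronal lsy-6-3p (-0.16) and miR-124-3p (-0.61) did not pass at 0.91 to 3.2 RPM. The rises were those of miR-71-3p (0.68) and miR-228-3p (0.64), the latter lost without L4440 replicate 1 or dcr-1 RNAi replicate 1. The falls of miR-240-5p (-0.37) and miR-60-3p (-0.36) were lost without 4 and 3 of the libraries, and that of miR-228-5p (-0.33) without dcr-1 RNAi replicate 1.

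RPM in co-immunoprecipitates (co-IPs) of GFP::RDE-1 against input was a readout from other libraries of the series, 2 co-IPs and their 2 inputs. Of 9046 rows, 94.2% passed the threshold and 6.94% were higher in the co-IP. Of 181 microRNA rows tested in both, 118 were higher, with a median log2 difference of 0.99. No co-IP without the tag was used here, so a higher level in the co-IP is not a measure of binding alone. Of the 68 microRNAs that fell on dcr-1 RNAi, 59 had higher levels there than in input, and the median log2 difference was 1.29. Of the 24 that rose, 2 were higher, with a median of -1.36, and of the 89 that did not pass and were tested in both, 57 were higher, with a median of 0.98. miR-789-2-5p (7.79) and miR-243-3p (6.56) had high co-IP values among the falls, and miR-77-5p (-2.29) a low value among the rises. Over 181 microRNA rows Spearman's rho between both changes was -0.40. It was 0.01 within the falls, 0.01 within the rises and -0.04 within the rest. These points share libraries and the greater and lesser arms of the same hairpins, so the values are a description.

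23H-RNAs were lower in sum in both dcr-1 RNAi libraries, and the largest part of the difference in RPM was that of F43E2.6. The 1193 sequences summed to 367 and 385 RPM on L4440 and to 209 and 216 RPM on dcr-1 RNAi, 56.5% of the L4440 mean. Of these sequences, 704 were at 0 in all 4 libraries and 37 passed the filter on low values. The 86 sequences named F43E2.6 alone held 51.6% of the class on L4440. They went from 181 and 208 RPM to 74.4 and 75.3 RPM, or 38.5%. The 134 sequences with a Y57G11C name went from 85.3 and 68.3 RPM to 50.8 and 56.9 RPM (70.1%) and the 38 of mir-5592 from 35.7 and 32.3 RPM to 22.7 and 19.1 RPM (61.5%). These 3 sets did not overlap between groups. The 60 with a ribosomal RNA name, at 41.7 and 44.6 RPM and at 39.0 and 39.1 RPM, were apart by less (90.5%), and the 875 sequences of all other names at 85.4%, where the groups overlapped. Without F43E2.6 the class stood at 75.7%, close to the 77.3% of microRNAs and the 82.3% of piRNAs on the deposited scale.

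**Figure D5:**
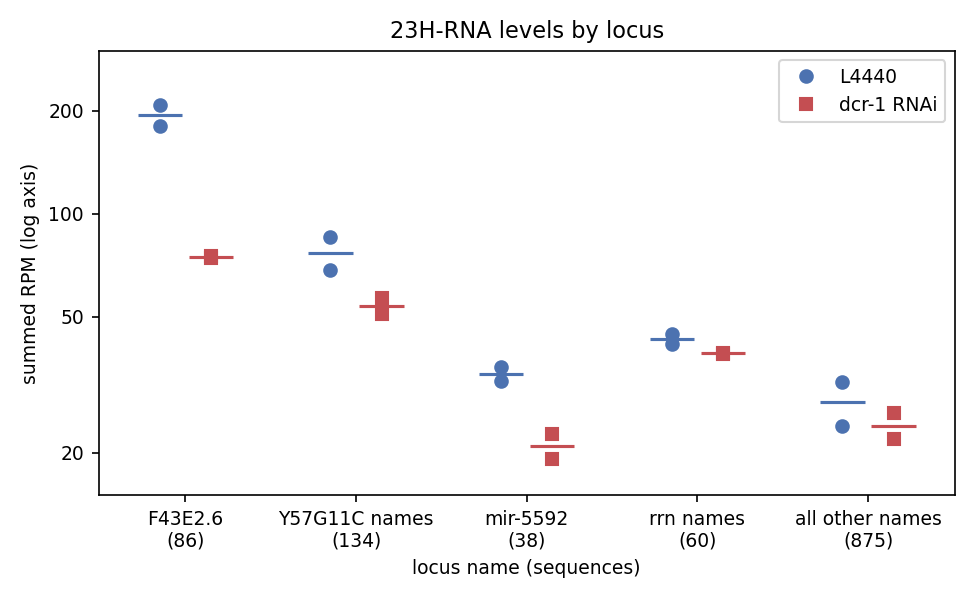
Summed RPM of 23H-RNA sequences by locus name (log axis), with circles for the 2 L4440 and squares for the 2 dcr-1 RNAi libraries, lines for their means, and the number of sequences in parentheses. F43E2.6 fell from a mean of 194 to 74.9 RPM, and the ribosomal RNA names went from 43.2 to 39.1 RPM.

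Within F43E2.6, 5 of 7 sequences tested fell, among them both strands of the duplex shown above. A 23-nt sequence with the shared 21 bases between an A and a T did not pass (log2 change -0.56, limma adjusted p 0.0981). Nor did a 23-nt sequence that starts 1 base before strand 2 (-0.44, limma adjusted p 0.463), which stood at 0.19 and 4.14 RPM on L4440. Strand 1 went from 80.5 and 89.6 RPM to 30.5 and 32.4 RPM (log2 change -1.41, SE 0.10, limma adjusted p 4.26e-08). Strand 2 went from 23.5 and 31.2 RPM to 9.30 and 6.65 RPM (-1.66, SE 0.17). The duplex thus fell on both sides, unlike most microRNA pairs above. Of the other forms of strand 1 printed above, that of 22 nt fell by 1.15 on the log2 scale, that of 24 nt by 1.20 and that of 21 nt by 0.87. The 4 forms of 22 to 24 nt, strand 2 included, passed without each library in turn and on every scale tried, while the 21-nt form, at 3.37 and 3.06 RPM on L4440, passed in none of the 4 fits with a library left out.

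The sequences of the Y57G11C hairpin that share their first 22 bases did not change alike. The 23-nt form ending in A, the most abundant of the hairpin, stood at 28.9 and 21 RPM on L4440 and at 20.6 and 25.7 RPM on dcr-1 RNAi, groups that overlap (-0.09, SE 0.15). The 22-nt form went from 9.97 and 7.53 RPM to 3.81 and 5.14 RPM (-0.83, SE 0.20). The form ending in G, named Y57G11C.51, went from 2.25 and 1.65 RPM to 0.23 and 0.39 RPM (-1.17, SE 0.27). The difference between these forms was not tested. Without dcr-1 RNAi replicate 1 neither fall passed (limma adjusted p 0.147 and 0.125), and without L4440 replicate 1 that of the 22-nt form did not (0.179), while the form ending in G was below the filter without either L4440 library.

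By length and first base the class was not uniform either, and F43E2.6 shares its length and first base with much of it. Sequences of 23 nt went from 202 and 218 RPM to 100.5 and 108 RPM (49.6%), those of 22 nt stood at 58.2% of the L4440 mean and those of 24 nt at 56.6%. Those of 21 nt, at 32.1 and 32.8 RPM on L4440 and 32.6 and 28.9 RPM on dcr-1 RNAi, overlapped between groups (94.9%). Sequences starting with T stood at 49.4%, with C at 51.1%, with A at 71.2% and with G at 76.7%. In the GFP::RDE-1 co-IPs the 11 sequences that fell were higher than in input by 1.21 to 7.77 on the log2 scale, and the sequences tested in both that did not fall were higher as well, by 1.18 to 6.93.

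22G-RNAs are made on the targets of primary siRNAs, and for the 23H-RNA targets both fell at F43E2.6 and the Y57G11C hairpin. At Y57G11C.51 the 23H-RNAs stood at 47.8% of the L4440 mean and the 22G-RNAs at 98.2%. At many other targets the 23H-RNAs were near 0, with L4440 means such as 0.025 RPM for K02E2.6 and 0.07 RPM for jmjc-1. No change of the siRNAs could be read there. The 22G-RNAs of F43E2.6 itself fell from 17.1 and 14.5 RPM to 5.65 and 7.12 RPM (log2 change -1.19, SE 0.17), or to 40.5% of the L4440 mean beside 38.5% for its 23H-RNAs. Those of the Y57G11C hairpin fell to 78.3% and those of Y57G11C.57, under whose name no 23H-RNA is listed, to 79.9%. The other 12 of the 15 target rows past the threshold, of 35 tested, rose, where the background of rises was 17.8%. Among these were the 22G-RNAs of the ribosomal RNA genes rrn-3.1 (0.40) and rrn-3.56 (0.55), whose rows may share reads, and of Y116A8B.1 (0.61). Some of the genes that rose are also listed as ERGO targets, with the same values, and recur below. Of 8 rows of this class past the threshold and chosen by the rule for named rows, 3 passed on all 3 other scales. All 3 falls were lost without L4440 replicate 1 (limma adjusted p 0.0754 for F43E2.6, 0.0865 for the Y57G11C hairpin and 0.135 for Y57G11C.57), and so were the rises named. Without dcr-1 RNAi replicate 1 the falls of the hairpin (0.122) and of Y57G11C.57 (0.138) and the rises of rrn-3.1 (0.0974) and rrn-3.56 (0.051) were lost too, and without replicate 3 the fall of Y57G11C.57 (0.0638).

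On the deposited scale the summed levels of the 2 classes of 26G-RNA differed from L4440 in opposite directions. ERGO-class 26G-RNAs summed to 415 and 488 RPM on L4440 and to 537 and 593 RPM on dcr-1 RNAi. Of 41 rows tested 9 rose, where the background of rises was 17.8%, and 1 fell, and on the scales centred or rescaled to all rows but microRNAs none rose and 2 fell. Y17D7C.3, the most abundant, went from 69.2 and 86.2 RPM to 105 and 109 RPM (0.47). F39F10.4 was the row that fell, from 2.48 and 4.24 RPM to 0.84 and 1.51 RPM (-0.99), and its 22G-RNAs fell as well, from 67.5 and 84.8 RPM to 46.3 and 49.2 RPM (-0.65). The 22G-RNAs of 5 genes rose with their 26G-RNAs, T16A1.9 (0.72), C40A11.10 (0.70), F55C9.3 (0.49), T05E12.10 (0.36) and F39E9.7 (0.35). The 22G-RNAs of the other 4 genes whose 26G-RNAs rose did not pass, at 0.16 for Y17D7C.3, -0.07 for F39E9.10, 0.23 for C01A2.1 and 0.34 for F55A4.4. Over the 41 genes with both, the log2 changes of 26G-RNAs and 22G-RNAs had the same sign in 24. ALG-class 26G-RNAs, known from spermatogenesis, summed to 334 and 202 RPM and to 146 and 184 RPM. Only ssp-34 (-1.06) and spch-2 (-0.85), both named as sperm genes, passed among 16 rows tested of 1399. No ERGO-class row passed without L4440 replicate 1 or without dcr-1 RNAi replicate 1, and ssp-34 and spch-2 passed only with all 4 libraries or without L4440 replicate 2. Their limma adjusted p was 0.116 and 0.148 without dcr-1 RNAi replicate 1 and 0.135 and 0.163 without replicate 3, and without L4440 replicate 1 it was 0.301 for spch-2 while ssp-34 was not tested.

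Some 22G-RNA rows fell against the direction of their class. F45B8.5 went from 14.1 and 14.7 RPM to 3.31 and 2.88 RPM (log2 change -1.91, SE 0.18, limma adjusted p 1.55e-06). unc-44, which encodes an ankyrin and is listed both as a WAGO-class gene and as an ERGO target, went from 24.1 and 28.4 RPM to 8.85 and 8.52 RPM (-1.49, SE 0.14), and acdh-1, an acyl-CoA dehydrogenase gene, from 12.1 and 10.4 RPM to 5.02 and 4.90 RPM (-1.03, SE 0.18). In all of these the groups were apart, and all passed on every scale tried. acdh-1 did not pass without L4440 replicate 1 (limma adjusted p 0.0824). The largest rise was that of Y60A3A.27, from 8.06 and 20.0 RPM, which differ widely, to 31.1 and 31.9 RPM (1.24, SE 0.24). In the CSR class it was that of rpl-9, a ribosomal protein gene, from 4.77 and 6.16 RPM to 14.8 and 9.32 RPM (0.99). Among targets of ALG 26G-RNAs unc-54, the muscle myosin gene, had 22G-RNAs that fell (-0.72) from 22.2 and 19.8 RPM to 9.96 and 15.4 RPM. unc-17 (0.81) and cha-1 (0.82) share a locus, and their rows had nearly the same values. Without L4440 replicate 1 or dcr-1 RNAi replicate 1, Y60A3A.27, rpl-9, unc-54, unc-17 and cha-1 lost their calls, and unc-54 also without L4440 replicate 2.

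The 22G-RNAs of genes that act in these pathways gave few calls, and their rises are set against the background of 17.8%. Of the Dicer and primary RNAi list, 4 rows of genes other than dcr-1 were tested and none passed, among them rde-1, the Argonaute of exogenous RNAi, at 22.3 and 20.1 RPM and at 25 and 25.6 RPM (0.25), drh-1 (0.24) and sid-1, the channel that imports double-stranded RNA (0.13). Of 8 amplification genes, mut-7 (0.36) and rde-12 (0.36) rose. None of the 4 ERI complex genes passed. Of 15 rows of Argonaute genes 5 rose and none fell, namely hrde-1 (0.43, in 2 rows with the same values), ppw-1 (0.42), wago-4 (0.31) and prg-1 (0.24, and -0.019 when rescaled to all rows but microRNAs). In the microRNA pathway list xrn-2, the exonuclease that degrades released microRNAs, was the 1 of 5 that rose (0.30). These rises lay near the median of 0.29 of the CSR class, and none passed without L4440 replicate 1.

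On the deposited scale piRNAs lay slightly lower over much of the class. Their sum went from 10253 and 10177 RPM to 8669 and 8137 RPM, and 76.5% of the 1202 rows tested had a log2 change below 0. 21ur-8083 had the largest fall by the rule for named rows, from 14.6 and 11.5 RPM to 6.49 and 6.09 RPM (-0.94, SE 0.17), and 21ur-3784 was the single row that rose, from 0.33 and 0.94 RPM to 1.37 and 2.37 RPM (0.82). Only 1 piRNA row of the whole class passed without L4440 replicate 1, and the call of 21ur-8083 was lost (limma adjusted p 0.103). Depth and the share of the dcr-1 siRNAs, 0.011% on L4440 and 2.88% on dcr-1 RNAi, moved with the groups, and their part in these shifts was not tested.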

How the data were processed

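Small RNAs were measured by sequencing, after NEBNext small RNA library preparation per the labels' protocols; pyrophosphohydrolase treatment is not named for these 4 samples. The authors' deposited RPM values were made with the tinyRNA pipeline and custom scripts, per the labels. The RPM denominator, filters and genome build are not given in the sources used here, so no coordinates are printed. No column of these tables was left unassigned. Rows with a mean of at least 1 RPM were fitted with limma 3.58.1 in R 4.3.3 on log2(RPM + 1), a scale that understates changes of low rows, with a mean-variance trend and two-sided Benjamini-Hochberg adjusted p-values over all rows (threshold 0.05). The script was tested on simulated data. A count test was not run, since whole reads could not be recovered for all rows. Arm ratios were differences of log2(RPM + 1) within a library. Named rows were all tested rows of the lists and, per class, up to 5 rises and 5 falls with non-overlapping groups and a group mean of at least 10 RPM (1 RPM for 23H-RNAs and 26G-RNAs). Values given for other rows (K12H6.2, 21ur-3784) were chosen after they were seen. Members and lists were chosen with earlier results of these data known. Alternatives were other pseudocounts, filters and scalings, and leaving out each library.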

Additional observations from a re-analysis of the deposited data

How the results depend on the processing

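No paired analysis was possible because the columns of the groups share only 1 replicate number. The 1632 features past the threshold became 45 without a filter on low values, 798 after centring, 4989 after rescaling to piRNAs and 670 after rescaling to all rows but microRNAs, and 94 to 1115 when a library was left out. A pseudocount of 0.1 gave 1590 and a minimum mean of 5 RPM gave 1682. The calls were partly other rows. Of the 1632, only 1 was also called without a filter, and it was neither a microRNA nor a 23H-RNA. After centring 425 of the 1632 were called, after rescaling to piRNAs 1488 and after rescaling to all rows but microRNAs 328. Of 132 named rows past the threshold, 131 did not pass without the filter. The causes were not tested. Arm pairs past the threshold numbered 1 to 30 with a library left out. Reversed single rows were miR-48-5p (5.5e-04), miR-36-3p (0.043), miR-39-3p (0.065), miR-40-3p (0.038) and miR-61-3p (0.053) on the piRNA scale and prg-1 (D2030.6) 22G-RNAs (-0.019) on the scale of all rows but microRNAs. Without microRNAs in the denominator the share differences, dcr-1 RNAi minus L4440, were -0.977 percentage points for piRNAs, -0.0609 for 23H-RNAs, 0.00692 for ERGO-class and -0.0402 for ALG-class 26G-RNAs, 0.769 for CSR-class and -3.79 for WAGO-class 22G-RNAs. Without dcr-1 siRNAs in it they were -0.282 for piRNAs and 6.31 for WAGO. With a library left out they ran from -11.2 to -9.36 for microRNAs, -0.364 to -0.283 for piRNAs, -0.0299 to -0.0270 for 23H-RNAs, 0.0125 to 0.0248 for ERGO-class and -0.0293 to -0.0066 for ALG-class 26G-RNAs, 1.71 to 3.00 for CSR-class and 4.45 to 5.47 for WAGO-class 22G-RNAs. The 23H-RNA sum differed by -164 RPM, by -107 RPM on the piRNA scale, by -44.2 RPM without F43E2.6 and by -173 to -155 RPM with a library left out. F43E2.6 differed by -119 RPM, -94.1 on the piRNA scale and -133 to -106; the Y57G11C hairpin by -16.6, -5.54 and -23.6 to -9.51; mir-5592 by -13.1, -7.84 and -14.9 to -11.3; the 4 joint ribosomal names (F31C3.10 first) by -1.31, 1.64 and -3.065 to 0.445; and F31C3.9 with rrn-3.1 by -1.06, 1.79 and -2.995 to 0.875. At 21.3 to 29.9 reads per RPM, rows under 1 RPM rest on few reads and were not tested.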
